A study of Homo sapiens with 6 samples.

Results

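The data describe 7 genes of the cell surface machinery that starts, restrains and senses blood coagulation: F3, THBD, TFPI, TFPI2, F2R, F2RL1 and PROCR. They were found by gene name in a deposited table of RNA-seq counts, where all 7 were present among 58735 genes. Tissue factor, the product of F3, is a membrane protein that binds factor VIIa and starts the extrinsic pathway of coagulation. TFPI blocks that complex together with factor Xa, and TFPI2 is a related Kunitz-type inhibitor of plasmin, trypsin and other serine proteases. Thrombomodulin (THBD) binds thrombin and redirects it to protein C, which is held at the cell surface by its receptor PROCR. F2R and F2RL1 encode the protease-activated receptors PAR1 and PAR2, G protein-coupled receptors that thrombin (PAR1) and trypsin-like proteases or the tissue factor complex (PAR2) switch on by cutting off part of their N terminus. Pancreatic carcinoma is known for its link to thrombosis, and tissue factor and both receptors have been studied in its cells.

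All 6 libraries came from Panc-1, an established human cell line of pancreatic carcinoma, labelled wild type. The 3 biological replicates called CAF here had been cultured for 72 h together with cancer-associated fibroblasts, and 3, called CAF-PAI-1, with such fibroblasts overexpressing PAI-1. The columns of the first group are headed CAF-NC in the table. How the fibroblasts were kept apart from Panc-1, what vector they carried and whether replicates were separate experiments are not given in the sources used here, and the p-values speak of the variation among these libraries, which may be technical.

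Libraries held 13628508 to 16006880 counts. Of 14960 genes that passed the filter on low counts, 4810 (32.2%) were called changed by edgeR's quasi-likelihood test with Benjamini-Hochberg adjusted p under 0.05, 17.2% higher and 15% lower with CAF-PAI-1, and the verbs rose and fell are used of such calls only. Scaling by library size alone changed the split from 2571 higher and 2239 lower to 1839 higher and 3182 lower. CAF-PAI-1 replicate 2 stood apart from the other 2 libraries of its group (chi-square per degree of freedom 9.51 and 6.63, against 3.39 between those 2) and had the lowest mitochondrial share of counts, 3.78%. That share also separated the groups, at 5.53% to 5.92% in CAF and 3.78% to 5.12% in CAF-PAI-1 libraries, and its part in the results was not tested. The overexpression was in the partner cells, so the Panc-1 libraries hold no direct check of it. The extraction text of the labels names another line, Cal27, a squamous carcinoma, and a compound, Stattic. Whether Stattic was used on these cells was not tested. All 7 squamous markers were under 1 CPM (CPM being counts scaled to library size) in every library. Among simple epithelial markers the keratins KRT8 and KRT18 were highest, at 1015 ± 31.6 and 581 ± 22.8 CPM in CAF libraries. There, KRT19 had 208 ± 7.83, KRT7 8.16 ± 0.62, EPCAM 7.06 ± 0.46 and CDH1 1.67 ± 0.21 CPM.

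Of the 7 genes, F3, THBD and F2RL1 rose, TFPI and F2R fell, PROCR was not called, and TFPI2 had too few counts to be tested. Tissue factor and thrombomodulin, a procoagulant and an anticoagulant protein, had the largest differences, 3.56-fold and 3.24-fold higher with CAF-PAI-1, from low levels. The other calls were small, 1.19-fold higher for the PAR2 gene, and 0.886 and 0.813 of the CAF level for the PAR1 and TFPI genes. Calls were thus made for 5 of 6 tested genes where 32.2% of all tested genes were called, and the groups did not overlap for the same 5 where this held for 43.4%. The genes were proposed with results of these data known, so the shares are descriptive.

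F3 (ENSG00000117525) lies on the minus strand of chromosome 1, from 94529225 to 94541800 on GRCh38, with 6 exons in its principal transcript. Its upstream sequence is shown because F3 had the largest fold change and because it alone among the matched promoters held all of the motifs searched. RefSeq promoters (GRCh38.p14) were matched by symbol for 5 of the 7 genes: F3, TFPI, TFPI2, F2RL1 and PROCR. Each was searched over 250 bases before the start, on both strands. The letters for AP-1 were TGACTCA. Those for EGR factors were GCGTGGGCG or GCGGGGGCG, those for SP1 were GGGCGGG, and those for the TATA box were TATAAA. Printed below are the stretches outside annotated exons for F3 at chr1:94541801-94542009 (minus strand), and for comparison for F2RL1, which also rose, at chr5:76818780-76818932 (plus strand) and for TFPI, which fell, at chr2:187554493-187554685 (minus strand), with matches in capitals.
F3: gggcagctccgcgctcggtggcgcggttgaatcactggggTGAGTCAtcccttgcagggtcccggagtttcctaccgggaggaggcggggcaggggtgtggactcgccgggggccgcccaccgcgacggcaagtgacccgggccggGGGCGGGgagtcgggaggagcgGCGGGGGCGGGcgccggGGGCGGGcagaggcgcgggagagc
F2RL1: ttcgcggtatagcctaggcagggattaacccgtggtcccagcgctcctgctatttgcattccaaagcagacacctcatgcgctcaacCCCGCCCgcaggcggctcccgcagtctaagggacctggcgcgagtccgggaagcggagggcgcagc
TFPI: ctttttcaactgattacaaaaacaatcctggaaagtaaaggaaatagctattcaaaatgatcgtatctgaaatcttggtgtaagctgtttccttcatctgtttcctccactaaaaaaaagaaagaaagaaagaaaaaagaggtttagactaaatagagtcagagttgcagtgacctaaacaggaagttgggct

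In the F3 window the AP-1 motif stood 210 to 204 bases before the start, in the reverse orientation, and the EGR motif 82 to 74 bases before it. SP1 motifs began 104, 78 and 65 bases upstream, the middle one overlapping the EGR motif, and a reverse TATA motif at 28 lies outside the printed stretch. An AP-1 match was found in 4.20% of 35116 RefSeq promoters, an EGR match in 5.37%, an SP1 match in 31.5% and a TATA match in 10.7%. All of AP-1, EGR and SP1 together were found in 20 promoters, or 0.057%. That combination is one that F3 holds, in a sequence examined with its fold change known, so the share is descriptive. The promoters were not matched for base content. G and C made up 78% of the F3 window and 38.4% of the TFPI window, and the EGR and SP1 letters are rich in both. F2RL1 had SP1 matches beginning 163 (reverse) and 77 bases upstream, the second outside the printed stretch. PROCR had 1 SP1 match and 1 reverse TATA match, 82 to 77 bases upstream. TFPI2 had 1 EGR match and the TFPI window had none. That window precedes a RefSeq start inside the annotated TFPI gene, and the sequences before its other starts were not searched. A match of letters does not show binding, and none of these sequences was assayed here.

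F3 had 31, 8 and 24 counts in CAF replicates 1, 2 and 3, or 1.88, 0.504 and 1.73 CPM after TMM scaling. In CAF-PAI-1 replicates 1, 2 and 3 it had 87, 60 and 68 counts, or 5.89, 4.36 and 4.40 CPM. Every CAF-PAI-1 library was above every CAF library. The mean went from 1.37 ± 0.75 to 4.88 ± 0.87 CPM (SD, n = 3 each), a log2 fold change of 1.83 (SE 0.29, edgeR adjusted p = 1.07e-05), with a 95% interval of 2.35-fold to 5.4-fold. Its log2 fold change, taken with its sign, was above that of 99.8% of genes tested. CAF replicate 2 was far below the other CAF libraries: its 8 counts have an exact 95% Poisson interval of 3.45 to 15.8, and the 31 counts of replicate 1 one of 21.1 to 44.0, where intervals cover counting error only. Without CAF replicate 2 the fold was 2.69, and without CAF-PAI-1 replicate 2 it was 3.74, and F3 remained called in both cases.

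THBD (ENSG00000178726), a gene of 1 exon on the minus strand of chromosome 20 from 23045633 to 23049741, had 23, 58 and 33 counts in the CAF replicates (1.40, 3.65 and 2.37 CPM). The CAF-PAI-1 replicates held 137, 90 and 127 counts (9.27, 6.54 and 8.21 CPM). Again all CAF-PAI-1 libraries lay above all CAF libraries, and CAF replicate 2, lowest for F3, was here the highest of its group. The mean went from 2.47 ± 1.13 to 8.01 ± 1.38 CPM (SD, n = 3 each), a log2 fold change of 1.70 (SE 0.23, edgeR adjusted p = 1.17e-06) and a 95% interval of 2.34-fold to 4.50-fold. With single libraries left out, THBD rose between 2.63-fold (without CAF replicate 1) and 4.32-fold (without CAF replicate 2), and 3.52-fold without CAF-PAI-1 replicate 2.

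Thrombomodulin is best known from endothelium, and monocytes and platelets can carry coagulation proteins too, so markers of those cells are given beside it. Endothelial markers summed to between 10.2 and 10.9 CPM in CAF and between 12.5 and 16.6 CPM in CAF-PAI-1 libraries, nearly all of it from ESAM and KDR, which both rose (log2 fold changes 0.45 and 1.13, edgeR adjusted p = 0.00874 and 0.0172). TEK, EMCN and ERG, defining endothelial genes, had 0 counts in all 6 libraries, PECAM1 had 2 in all, and 8 of 10 endothelial markers stayed under 1 CPM. Monocyte and macrophage markers summed to 7.70 to 10.4 CPM in CAF and 8.69 to 9.79 CPM in CAF-PAI-1 libraries, with 7 of 9 under 1 CPM and FCGR3A and CD163 at 0. CD14 and ITGAM, the most abundant of them, had 5.52 ± 0.55 and 2.40 ± 0.60 CPM in CAF libraries and were not called. Platelet markers summed to 9.32 to 9.87 CPM in CAF and 6.30 to 8.93 CPM in CAF-PAI-1 libraries, 4 of 7 under 1 CPM, with GP1BA and GP6 highest and PPBP, GP9 and TREML1 at 0.

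Fibroblasts, the partner cells, also express F2R and F3. Fibroblast markers summed to 298 to 327 CPM in CAF and 353 to 381 CPM in CAF-PAI-1 libraries, of which COL1A1 (186 ± 19.9 and 257 ± 16.5 CPM) and FBLN1 (116 ± 6.25 and 110 ± 6.17 CPM) made up most. POSTN, FAP, PDGFRB, PDGFRA, LUM, DCN and COL1A2 had between 1 and 6 counts each over the 6 libraries together, and of the 12 markers 8 never reached 1 CPM. The part of COL1A1-expressing cells in the results was not tested. In bulk RNA, a change in the number of cells that express a gene and a change in its RNA per cell cannot be told apart.

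TFPI (ENSG00000003436), on the minus strand of chromosome 2 from 187464230 to 187565760, was the abundant inhibitor of the pair. Its level was 134, 136 and 135 CPM in the CAF replicates, from 1872 to 2202 counts, and 113, 109 and 106 CPM in the CAF-PAI-1 replicates, from 1501 to 1676 counts. The CAF libraries differed from each other by at most 1.02-fold and all lay above the CAF-PAI-1 libraries. TFPI fell to 0.813 of its CAF level (95% interval 0.75 to 0.881, log2 fold change -0.30, SE 0.057, edgeR adjusted p = 9.98e-05). The annotation lists 12 transcripts of TFPI with 10 different starts, among them forms that differ in their C terminus and membrane anchor, and the counts per gene do not separate them.

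TFPI2 (ENSG00000105825), on chromosome 7 from 93885396 to 93890991, had 0 counts in each CAF library and 1, 1 and 0 in the CAF-PAI-1 libraries. The limit that a count of 0 allows, 3 counts, corresponds to 0.187 to 0.22 CPM by library totals, without TMM scaling, and no fold is given. The RNA of this inhibitor was thus at or under the detection limit in both groups.

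Per kilobase of principal transcript the receptor genes were the most abundant of the 7, and they moved in opposite directions. F2RL1 (ENSG00000164251) was at 249, 258 and 253 CPM in the CAF replicates, from 3515 to 4108 counts, and at 310.1, 292 and 301 CPM in the CAF-PAI-1 replicates, from 4020 to 4654 counts. All CAF-PAI-1 libraries were above all CAF libraries, and the rise was 1.19-fold (95% interval 1.10 to 1.28, log2 fold change 0.25, SE 0.052, edgeR adjusted p = 0.000362). F2R (ENSG00000181104) was at 146, 148 and 146 CPM in the CAF replicates and at 132, 131 and 127 CPM in the CAF-PAI-1 replicates, from 1800 to 2402 counts. The groups did not overlap here either, and F2R fell to 0.886 of its CAF level (95% interval 0.819 to 0.958, log2 fold change -0.18, SE 0.055, edgeR adjusted p = 0.0141). This call was the least firm of the 5: the adjusted p was 0.0593 without CAF replicate 2 and 0.0765 without CAF-PAI-1 replicate 3, with log2 fold changes of -0.17 and -0.16.

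PROCR (ENSG00000101000), at 35172073 to 35216240 of chromosome 20 (plus strand), did not differ between groups beyond its spread. It had 29.3, 34.7 and 29.99 CPM in the CAF replicates and 31.6, 32.3 and 34.1 CPM in the CAF-PAI-1 replicates, and the groups overlapped. Its fold of 1.04 has a 95% interval of 0.923 to 1.18 (edgeR adjusted p = 0.639), which bounds the difference but does not show equal levels. Scaling by library size alone turned its log2 fold change from 0.06 to -0.0065. As with THBD, the highest CAF value was that of replicate 2.

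**Figure D1:**
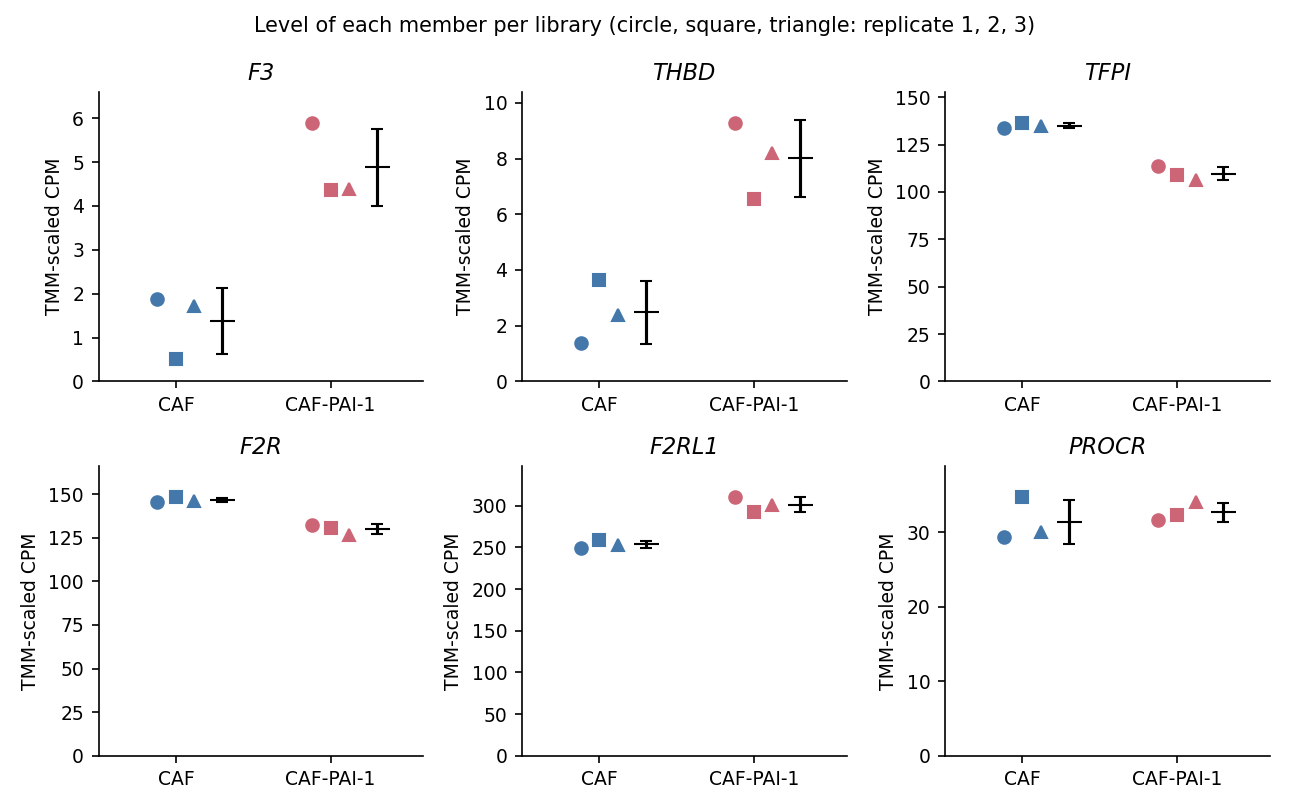
TMM-scaled CPM (vertical axes, from 0) of the 6 tested genes in each library, with 3 CAF libraries in blue and 3 CAF-PAI-1 libraries in red; black bars are the mean ± SD. F3 and THBD lie at most at 3.65 CPM in CAF and at least at 4.36 CPM in CAF-PAI-1 libraries, the small differences of TFPI, F2R and F2RL1 exceed the spread of their replicates, and PROCR overlaps.

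The spread between replicates followed the depth of each gene only in part. The coefficient of variation in the CAF group was 55.0% for F3 and 45.8% for THBD, where counting alone gives 21.8% and 16.2% at their mean counts. It was 17.9% and 17.2% in the CAF-PAI-1 group, where counting alone gives 11.8% and 9.21%. TFPI, F2R and F2RL1 had coefficients of 0.927% to 3.25% in either group, near the 1.504% to 2.49% of counting error. PROCR had 9.38% in CAF and 3.87% in CAF-PAI-1 libraries, against a counting error of 4.55% and 4.57%. In the CAF group, replicate 2 was the lowest library for F3 and the highest for THBD, while for THBD replicate 1 lay about as far below the mean as replicate 2 lay above it.

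Per kilobase of principal transcript, the order of levels in CAF libraries was F2RL1 at 87.0 ± 1.59, F2R at 38.4 ± 0.36, TFPI at 34.7 ± 0.36, PROCR at 23.2 ± 2.18, and THBD and F3 at 0.602 ± 0.28 and 0.599 ± 0.33 CPM per kb (SD, n = 3), which did not differ beyond their spread. With CAF-PAI-1 the levels were 103 ± 3.11, 34.0 ± 0.73, 28.2 ± 0.92, 24.2 ± 0.94, 1.95 ± 0.34 and 2.13 ± 0.38 CPM per kb in the same order, so the order was kept except within the last pair, where THBD and F3 again overlapped. Per kilobase of all annotated exons TFPI, with 11714 bases of exons, would stand at 11.5 CPM per kb in CAF libraries and below PROCR at 18.5, so its place depends on the transcript assumed.

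**Figure D2:**
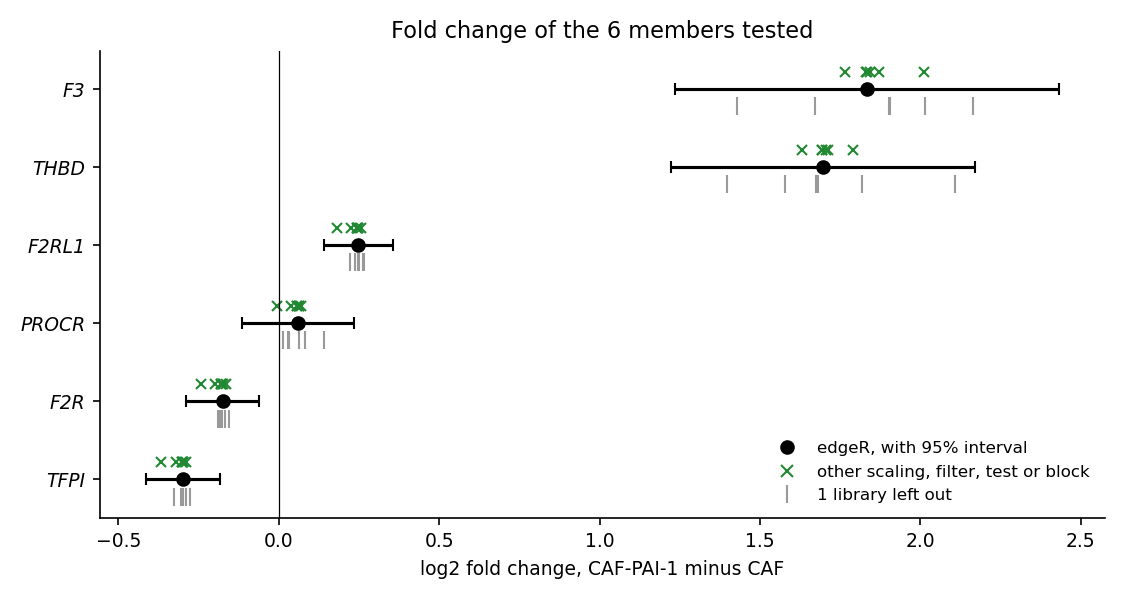
Log2 fold change of each tested gene, CAF-PAI-1 minus CAF, with its 95% interval from edgeR (black), its value under other scalings, filters, tests or the replicate block (green crosses) and with 1 library left out (grey ticks). F3 and THBD range from 1.40 to 2.16 when single libraries are left out, and PROCR is the only gene whose interval includes 0.

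Ratios of 2 genes within a library do not depend on how libraries are scaled. The tissue factor to inhibitor ratio, F3 counts per 100 TFPI counts, was 1.41, 0.37 and 1.28 in the CAF replicates and 5.19, 3.997 and 4.13 in the CAF-PAI-1 replicates. It was 5.05-fold higher with CAF-PAI-1 (difference of mean log2 ratios 2.34), and the groups did not overlap. The two-sided exact permutation test gave p = 0.1 (n = 3 each), the smallest it can give. CAF replicate 2 weighs on the size, which was 3.28-fold without it.

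The receptor ratio was tight. There were 58.5, 57.4 and 57.8 F2R counts per 100 F2RL1 counts in the CAF replicates and 42.7, 44.8 and 42.2 in the CAF-PAI-1 replicates. The ratio was 0.746 of its CAF value, with no overlap and, again, the smallest p that the exact permutation test allows (p = 0.1, n = 3 each). Where the separate calls of F2R and F2RL1 rest on the scaling of libraries, this ratio does not. F3 counts per 100 THBD counts were 135, 13.8 and 72.7 in CAF and 63.5, 66.7 and 53.5 in CAF-PAI-1 libraries, and the groups overlapped (difference of mean log2 ratios 0.25, two-sided exact permutation p = 1, n = 3 each). Without CAF replicate 2 that difference was -0.70, so its direction rests on 1 library.

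**Figure D3:**
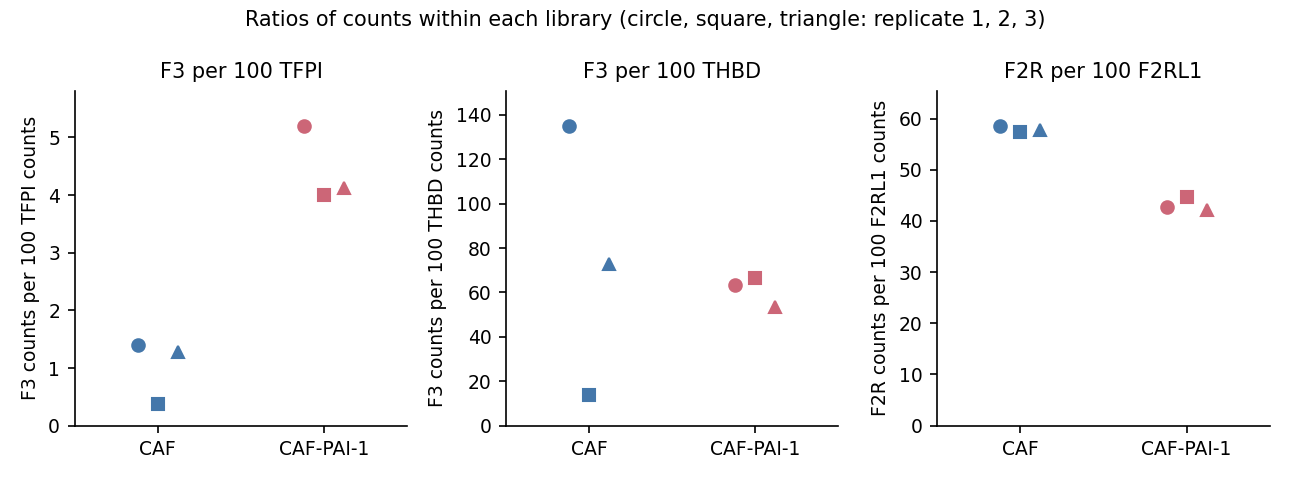
Counts of the first gene per 100 counts of the second in each library (vertical axes from 0; blue CAF, red CAF-PAI-1, 3 libraries each). F3 to TFPI and F2R to F2RL1 separate the groups, while F3 to THBD spreads from 13.8 to 135 in CAF libraries and from 53.5 to 66.7 in CAF-PAI-1 libraries.

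Of the 7 genes, only F2R and F2RL1 are neighbours. F2R occupies 76716043 to 76735781 and F2RL1 76818933 to 76835315, both on the plus strand of chromosome 5, with 83152 bases and no annotated gene between them. On the other side of F2R, beyond 3 genes that were not tested, lies F2RL2, the gene of PAR3, a receptor that thrombin also cleaves. It had 2.00, 1.89 and 2.09 CPM in the CAF replicates and 3.18, 3.05 and 2.97 CPM in the CAF-PAI-1 replicates, without overlap, but missed the threshold (log2 fold change 0.62, SE 0.25, edgeR adjusted p = 0.0546). Of these 3 receptor genes, F2RL1 thus rose, F2R fell and F2RL2 was not called.

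The nearest tested neighbours of the other genes went either way. Beside F3, ABCD3, a peroxisomal transporter gene 10559 bases away, fell (log2 fold change -0.26, edgeR adjusted p = 0.00466) and SLC44A3 was not called. Beside THBD, NXT1, an mRNA export factor gene, rose (0.72, adjusted p = 5.51e-08) and FOXA2, an endodermal transcription factor gene, fell (-0.24, adjusted p = 0.0131). GULP1, an adaptor gene on the far side of TFPI at 725909 bases, fell (-0.34, adjusted p = 0.00026), and CALCRL at 15770 bases was not called. GNG11, a G protein gamma subunit gene beside TFPI2, rose (0.36, adjusted p = 0.0103), VPS50 and AGGF1 were not called, and neither were EDEM2 and MMP24, beside PROCR. Genes annotated on the opposite strand with exons overlapping TFPI and F2R had 4 to 11 and 2 to 12 counts per library. Whether the counting used strand is not given in the sources, and how reads in the overlaps were assigned was not tested. MMP24OS, on the opposite strand to PROCR and at 52.7 ± 3.34 CPM in CAF libraries, shares no exon bases with it.

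Another feature of the transcripts that was looked at is the AU-rich element, a sequence in 3′ untranslated regions that shortens the life of many mRNAs of early response and cytokine genes. THBD was the only one of the 7 with the nonamer TTATTTATT in the 3′ untranslated region of its principal transcript, which was found in 8.61% of 12433 tested genes with such a region. There were 2 overlapping matches, the second starting 4 bases after the first. The stretch that holds both is shown, with the first in capitals, from base 1684 to base 1713 of the 2144 bases after the stop codon (GENCODE release 29 transcript, DNA letters).
THBD: ttgtacatagTTATTTATTtattggagata

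The pentamer ATTTA occurred 6 times in F3, 9 in THBD, 17 in TFPI, 14 in TFPI2, 8 in F2R, 3 in F2RL1 and 1 in PROCR. Per kilobase that is 4.86, 4.20, 6.36, 9.83, 3.51, 1.98 and 1.82 in that order, where the median of tested genes was 1.58. TFPI, which fell, had a higher density than F3 and THBD, which rose. RNA stability was not measured, and the part of these elements in the differences was not tested. The sequences were examined after the values were known.

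Other genes of the coagulation system, listed by role with earlier results of these data known, were described by their counts, beside the 17.2% higher and 15% lower and a median log2 fold change of -0.0015 over all tested genes. The coagulation factors themselves were mostly absent: 4 of 16 passed the filter, and 11 had under 10 counts in all 6 libraries together. None of the 4 was called by edgeR, and none had an unadjusted p under 0.05; DESeq2 and limma-voom called none either. F12, the factor that starts the contact pathway, had the smallest p of them, at 26.7 ± 2.57 and 31.8 ± 7.22 CPM (log2 fold change 0.25 with SE 0.13 and adjusted p = 0.155; without CAF-PAI-1 replicate 1 it was called, at 0.38). F8, F13A1 and F10 had log2 fold changes of -0.11, -0.28 and 0.02, and F7, the partner of tissue factor, F2, the gene of prothrombin, and F5 were not tested for lack of counts.

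In a list of 13 anticoagulant proteins and genes related to them, 6 were tested, 2 rose and 1 fell, with a median log2 fold change of 0.20. The list is broad, and its called genes include SERPINA1 and GAS6, which are not mainly anticoagulants. ANXA5, which covers the phosphatidylserine that coagulation complexes need, rose from 461 ± 24.8 to 556 ± 46.1 CPM (log2 fold change 0.27, edgeR adjusted p = 0.000476). SERPINA1, the antitrypsin gene, rose from 1.603 ± 0.71 to 3.13 ± 0.16 CPM (0.98, adjusted p = 0.00974), and this call was lost without CAF replicate 1, the lowest library (0.64, adjusted p = 0.0959). GAS6, a vitamin K-dependent ligand of TAM receptors related to protein S, fell from 31.2 ± 2.26 to 23.3 ± 1.98 CPM (-0.42, adjusted p = 0.000586). PROS1, the gene of protein S, which is a cofactor of both activated protein C and TFPI, had 80.04 ± 6.61 and 85.5 ± 4.15 CPM and was not called (0.10, adjusted p = 0.297). PROC, the gene of protein C, the zymogen that thrombomodulin and PROCR act on, did not pass the filter.

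Few genes of the vitamin K cycle, factor secretion and phosphatidylserine exposure were called. Of 19 tested members (21 listed), 1 rose and none fell by edgeR, 2 had a negative fold with an unadjusted p under 0.05, and the median was -0.06. P4HB, a protein disulphide isomerase that has been linked to tissue factor activation, was the member that rose, from 859 ± 25.0 to 1119 ± 5.42 CPM (log2 fold change 0.38, edgeR adjusted p = 4.26e-07). GGCX, the carboxylase that finishes vitamin K-dependent factors, had -0.16 (adjusted p = 0.0589), and LMAN1, which exports factors from the endoplasmic reticulum, 0.12. ANO6, the scramblase that exposes phosphatidylserine, had 0.05 (adjusted p = 0.655). No member was called lower by DESeq2 and 1 was by limma-voom.

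A broad list held proteases considered for receptor cleavage and inhibitors of such proteases. Of its 30 genes, 8 were tested, and 1 rose and 1 fell, with a median of -0.22. Being listed does not show that a protease cleaves PAR1 or PAR2, and no cleavage was measured. PRSS22, a trypsin-like serine protease of epithelia, rose 2.22-fold, from 20.3, 19.2 and 18.1 CPM in the CAF replicates to 38.0, 43.4 and 46.7 CPM in the CAF-PAI-1 replicates (log2 fold change 1.15, SE 0.091, edgeR adjusted p = 4.39e-12). SPINT1, a membrane-bound Kunitz inhibitor of matriptase and hepsin, fell from 17.4 ± 1.66 to 13 ± 0.45 CPM (-0.41, SE 0.11, adjusted p = 0.00516). The genes of matriptase (ST14) and hepsin (HPN) had 1 to 8 and 2 to 9 counts per library and did not pass the filter. SPINT2, a related inhibitor, had 699 ± 23.9 and 726 ± 30.03 CPM and was not called. MMP1, a collagenase reported to cleave PAR1, and CTSS were low and not called (0.28 and -0.48, adjusted p = 0.311 and 0.137).

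Receptor partners and G protein signalling genes were expressed widely, with 26 of 30 tested, 4 higher and 5 lower, and a median of 0.04. RGS2, a negative regulator of Gq signalling, rose 2.16-fold, from 2.10 ± 0.35 to 4.52 ± 0.86 CPM (log2 fold change 1.11, SE 0.23, edgeR adjusted p = 0.000367). GNA15, a Gq family subunit, rose by 0.48 (adjusted p = 0.00224), and GNAI3 and ARHGEF1 rose by 0.25 and 0.23. ARRB1, one of the arrestins that carry PAR2 away from the surface and signal with it, fell from 105 ± 8.79 to 86.1 ± 6.81 CPM (-0.29, SE 0.068, adjusted p = 0.0011). GRK5, a kinase that marks receptors for arrestins, fell by 0.25 (adjusted p = 0.0083, and 0.0647 without CAF replicate 3). ARRB2 had -0.22 and did not pass (adjusted p = 0.0522). Yet ARRB2 was called lower with RLE scaling, library size alone, a mean of 10 CPM, the replicate block and some single libraries left out. ARHGEF11, GNAI1 and ARHGEF12 also fell, at -0.32, -0.36 and -0.15, the last with an adjusted p of 0.0477 that rose to as much as 0.207 with single libraries left out (CAF replicate 1 or 3, CAF-PAI-1 replicate 2 or 3). ARHGEF12 was not called by DESeq2 (adjusted p = 0.0614), by limma-voom (0.0511) or without a filter (0.0762) either. GNAQ, GNA11, GNA12 and GNA13, the G proteins best known for coupling to PAR1, had log2 fold changes of 0.14, -0.15, -0.03 and 0.04. None was called in the main fit. GNA11 was called lower with library size alone, with a mean of 10 CPM and without CAF-PAI-1 replicate 2. GNAQ was called higher without CAF replicate 3.

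**Figure D4:**
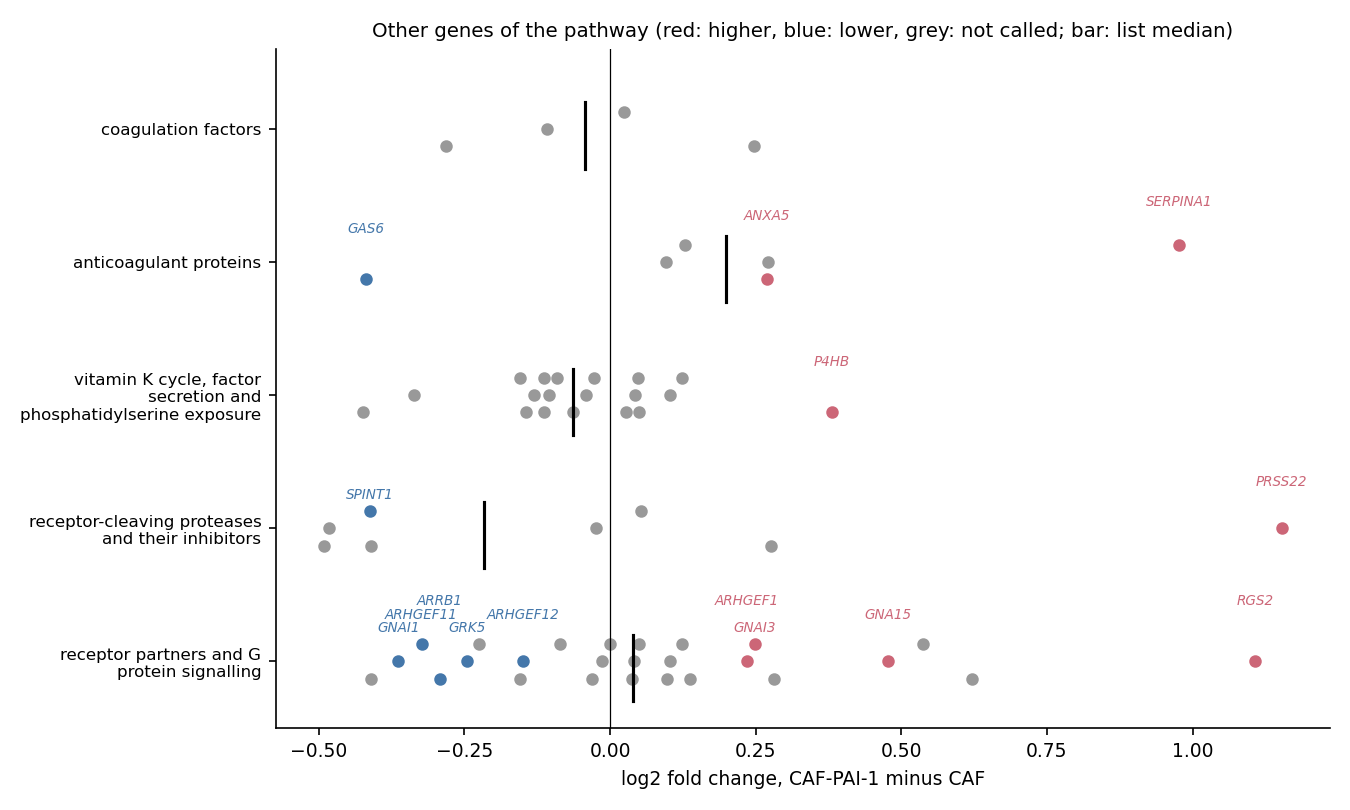
Log2 fold change, CAF-PAI-1 minus CAF, of the tested genes of 5 lists of the coagulation and receptor pathway (points, 1 per gene; red higher, blue lower, grey not called; black bars are list medians; height within a row has no meaning). PRSS22, RGS2 and SERPINA1 are farthest to the right at 1.15, 1.11 and 0.98, and the medians lie between -0.22 and 0.20.

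Genes whose level followed each member most closely over the 6 libraries were found by Pearson's r of log2 CPM among 10951 or 10952 genes of at least 5 CPM. These are descriptions: the 6 points share their libraries and fall into 2 groups. Genes that differ between the groups in the same direction thus tend to score high. F3 was closest to RNF121 (r = 0.996) and SKI (0.994), and THBD to ZNF365 (0.997) and TUBGCP2 (0.996). Among the closest genes were UNC5C for TFPI (0.997) and TFPI for F2R (0.9965). F2RL1 was closest to MICAL2 and NFE2L3 (0.998 each). PROCR was closest to ETFRF1 (0.971) and FUCA2 (0.963). At least 0.95 was reached by 115 genes for F3, 217 for THBD, 436 for F2R, 512 for TFPI and 665 for F2RL1, but by 3 for PROCR.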

How the data were processed

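The authors deposited 1 table of whole-number counts per gene for 6 poly(A)-selected RNA-seq libraries (3 CAF, 3 CAF-PAI-1). Upstream tools listed in the submitters' processing notes were RSEM, Bowtie2 and BWA, with the build hg19; their roles, versions and the source of whole counts were not stated there. All 58735 gene identifiers occur in GENCODE release 29 (GRCh38), from which coordinates and lengths were taken. The test was edgeR's quasi-likelihood one (version 4.0.16, R 4.3.3; filterByExpr with minimum count 10 and minimum total 15, TMM, robust glmQLFit, glmQLFTest, no covariates), as CAF-PAI-1 minus CAF, with Benjamini-Hochberg adjustment over 14960 genes and a threshold of 0.05. The standard error is the log2 fold change over the root of F. CPM are TMM-scaled, while marker sums and the limit for a count of 0 use library totals. Chi-square of library pairs used genes with at least 20 counts; none was a duplicate. The edgeR, DESeq2 1.42.0 and limma 3.58.1 fits were tested on simulated data. The members and lists were chosen with earlier results of these data known. All members were named, and of each list the tested genes with the smallest p, of each marker list the most abundant, the nearest tested neighbours, and the genes most alike; other list members are named to describe a count. Alternatives are RLE scaling, library size alone, no filter, a mean of 10 CPM, DESeq2, limma-voom, the replicate block and each library left out. Some genes that these rules name are not reported here.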

Additional observations from a re-analysis of the deposited data

How the results depend on the processing

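F3, THBD, TFPI and F2RL1 kept their direction and their call under every alternative that could test them. With a mean of at least 10 CPM, F3 and THBD were not tested and 1 member was called higher instead of 3. With library size alone PROCR had -0.0065 in place of 0.06, uncalled in both cases. That scaling called 3 genes of the vitamin K and phosphatidylserine list lower (2 with a mean of 10 CPM, 1 with limma-voom) and 8 receptor partners in place of 5. Without a filter 1 coagulation factor (F12) and 2 protease list genes were called higher. A mean of 10 CPM, under which SERPINA1 was not tested, left 1 gene of the anticoagulant list higher. Other causes were not tested.

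Leaving out 1 library at a time gave 2124 to 2446 genes higher and 1818 to 2227 lower. Members called lower numbered 1 to 2, coagulation factors higher 0 to 1, and anticoagulant list genes higher 1 to 2. Vitamin K list genes called higher numbered 1 to 3 and lower 0 to 1, and protease list genes lower 1 to 2. F2R ranged from -0.19 to -0.16 and the F3 to THBD ratio from -0.70 to 0.94. Without CAF-PAI-1 replicate 2, LMAN1 and ANO6 were called higher and ATP11A and CTSS lower; without its replicate 1, F12 was called higher.

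Replicate numbers are shared by the groups, and whether they mark pairs is not settled by these values. Deviations of same-numbered libraries correlated at 0.041, 0.155 and 0.019. Those of differently numbered libraries ran from -0.119 to 0.079, the highest being CAF replicate 3 with CAF-PAI-1 replicate 1. The replicate block gave 2708 genes higher and 2361 lower, called 1 coagulation factor higher, and changed no other count or member call by over 1.5 times. Depth limits F3 and THBD, with 63 and 114 counts over the CAF libraries, and TFPI2, with 2 counts in all.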
